A study of Mus musculus with 59 samples.

Results

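The libraries described here are RNA profiles of cultured mouse glia on days 3 and 7 of co-culture with neurons. They are all glial libraries of those days, 7 of day 3 and 8 of day 7, chosen by the cell type and day in the labels, out of 59 libraries in the series. The cultures, called sandwiches, joined glia and neurons that were each either wild type or SOD1_G93A mutant, a form of superoxide dismutase 1 that causes amyotrophic lateral sclerosis (ALS). RNA of the glia was sequenced apart from that of the neurons. The pairings were mutant glia with mutant neurons (MTG_MTN), mutant glia with wild-type neurons (MTG_WTN) and wild-type glia with wild-type neurons (WTG_WTN), each with 2 libraries on each day, and wild-type glia with mutant neurons (WTG_MTN), with 1 library on day 3 and 2 on day 7. The labels name no added agent. The labels give no sex, age or strain, do not say from which tissue the glia came or how they were kept apart from the neurons, and do not give the library kit of each sample (standard Illumina or Nextera). They also do not say whether replicates were separate cultures, or whether the cultures of both days came from 1 preparation, so the p-values describe the scatter among libraries, which may be technical.

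Glia of the central nervous system include astrocytes, which clear glutamate and feed neurons, oligodendrocytes, which make myelin and arise from dividing precursors, and microglia, the resident immune cells. Cultures of glia also carry fibroblast-like cells of the meninges, which secrete collagen. In ALS models the mutation in glia harms the motor neurons beside them, so the state of cultured glia over time bears on what neurons in such cultures meet.

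Values are RPKM, reads per kilobase of transcript scaled to the library's depth, rescaled so that the median gene is level across libraries. The log2 change is day 7 minus day 3 of the rescaled RPKM plus 1, from a limma model with the pairing as a covariate. Folds are on that scale and understate the change of low genes. Genes are called past a Benjamini-Hochberg adjusted p of 0.05 over all entries tested.

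The libraries held 8.01 to 19.2 M reads on genes. The 3 libraries numbered replicate 1 at day 3 were the shallowest, at 8.01 to 8.9 M reads, and needed rescaling factors of 1.48 to 2.13 against 0.816 to 0.904 in the other 12. The first principal component (33% of the variance) separated the days and the second (31.9%) the replicate numbers. All 12 astrocyte markers and 15 microglial markers listed were present in the glia, with summed levels at day 3 (values rescaled over all 23 glial libraries) of 1535 to 1865 and 2267 to 4061. Myelin (677 to 1086), fibroblast and meningeal (2021 to 3308) and pan-neuronal markers (185 to 307) were present too, and red blood cell markers were at or near 0 (at most 0.359 in a library of either day). The part of other cell types in the results below was not tested, and in bulk RNA fewer cells of a type and less RNA per cell cannot be told apart.

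2 checks of the labels stood apart. Sod1, the mouse entry for this protein, was at 870 to 1279 in the 3 replicate 1 libraries of day 3, 1 of them wild-type glia at 1273, and at 178 to 246 in the replicate 2 libraries of that day. At day 7 it was at 396 and 299 in wild-type replicate 1, 577 and 496 in mutant replicate 1, and 180 to 285 in replicate 2. The entry thus followed the replicate number more than the genotype, and its change between the days was -0.38 (SE 0.485, limma adjusted p = 0.611), with 0.58 and an adjusted p of 0.157 without the day 3 replicate 1 libraries. The G93A mice carry the mutation on an added human gene, so the mouse Sod1 entry is not itself targeted and does not check the genotype directly. Whether reads of the human gene, the library kit or an exchanged label had a part in these values was not tested. Eif2s3y, a translation factor gene on chromosome Y (mm9, 346986 to 365291), was at 13 to 25.1 in wild-type glia of day 3 but at 0 to 0.174 in the 4 wild-type libraries of day 7. In mutant glia it was at 13.1 to 29.6 and then 26.7 to 48.5. The wild-type glia of the 2 days thus differed in a Y-linked transcript as well as in age, so the main counts are also given within mutant glia alone.

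From day 3 to day 7 most tested marker genes of the oligodendrocyte lineage and of meningeal fibroblasts fell in the glial libraries, as did most collagen genes. Other matrix genes were lower more often than higher. Which cells these transcripts came from was not tested. Some progenitor genes, 8 of 15 interferon-induced genes and single signalling genes such as Shh rose, and astrocyte genes moved both ways. Of the interferon-induced genes 1 of the 15 was called with the libraries taken as correlated sets (defined in the next paragraph). With the values as deposited 0 of them were called. Of 12 progenitor genes 5 rose and 2 fell, and 1 and 1 with correlated sets. Among 12 astrocyte markers 3 were higher and 3 lower, and 1 and 2 with correlated sets. Of 14189 entries tested, 1640 were higher at day 7 (11.6%) and 1783 were lower (12.6%), and the median change of all entries was 0.02. Among the entries called, 1559 of the higher and 1685 of the lower ones moved the same way in each of the 4 pairings. The values of the days did not overlap in 468 of the 1640 and in 701 of the 1783. Both kinds of count were made among entries called on these same values. They describe the calls and add no separate support, and the shares over all entries are not given here. Within mutant glia alone 1625 of the 1640 kept their direction and 413 also their call, and 1748 of the 1783 kept their direction and 830 their call.

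Without the 3 replicate 1 libraries of day 3 the limma counts were 1748 higher and 1957 lower. Of the 1640 entries, 1621 (98.8%) kept their direction and 1138 their call, and of the 1783, 1696 (95.1%) kept their direction and 1386 their call. With the deposited values, not rescaled, the split was 40 higher and 3495 lower, since the median of all entries then moved to -0.385. The replicate numbers went with a shift common to the pairings, and with the number as a block the counts were 2993 and 2669. The 15 libraries are 4 sets of 1 day and 1 replicate number: with the sets as correlated groups (estimated correlation 0.499) 154 were higher and 454 lower, and with the mean of each set 0 were higher (600 at an unadjusted p under 0.05) and 8 lower. Leaving out the only WTG_MTN library of day 3 gave 1049 higher. Of the 116 genes described below with a called day change, 66 were still called with correlated sets, and the p of that fit is given beside those described by their day change that were not.

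The 15 named falls and 15 named rises are the largest by log2 change among called entries that stayed called without the day 3 replicate 1 libraries and whose values did not overlap between days. For these genes the lack of overlap and the call without those libraries were fixed by the selection. Where given below, they are no further evidence. The falls were Reg3g, Aqp1, Sox10, Tnr, H19, Cbr2, Cpz, Epyc, Bcas1, Cacng4, Rtn4rl2, Mgp, Ptgds, Sema3d and Cldn11, from -3.92 to -2.22. The rises were smaller, from 1.08 to 1.70: Gchfr, Cd72, Cnmd, Slamf9, Gria1, C1ql3, Gldc, Traf1, Gstm6, Shh, Slco1a4, Mia, Adam11, C3 and Klhdc8a.

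**Figure D1:**
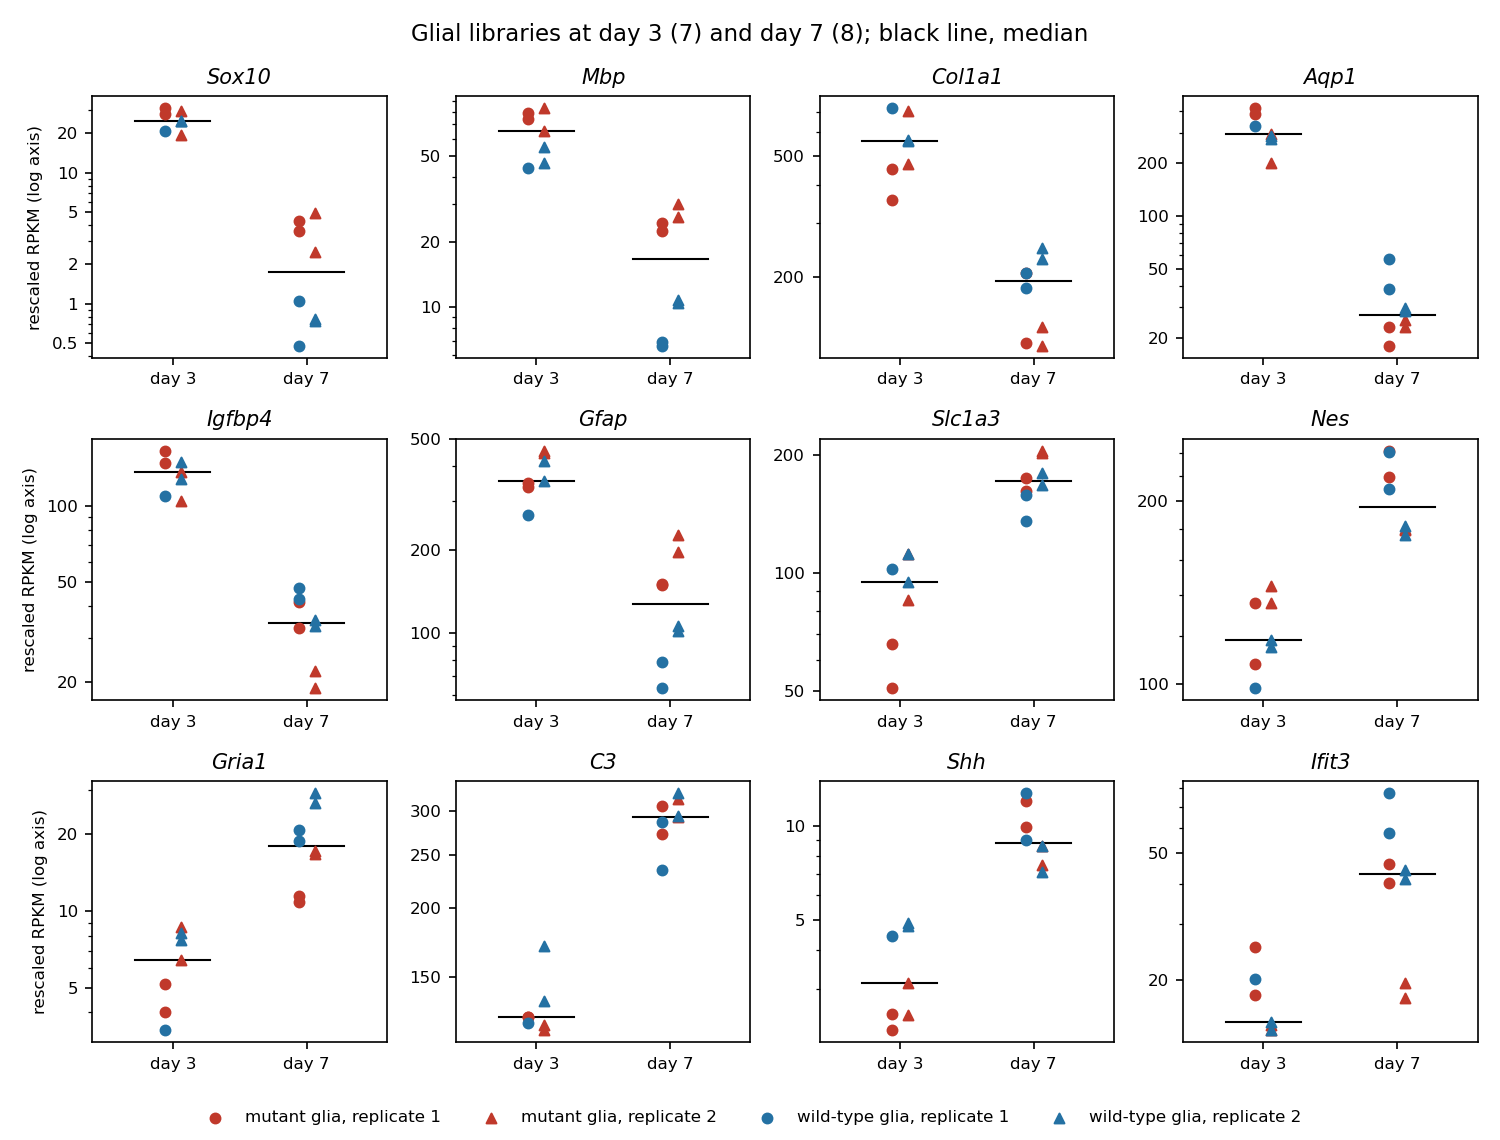
Rescaled RPKM (log axis) of 12 genes in the 7 glial libraries of day 3 and the 8 of day 7, 1 point a library, coloured by glial genotype and shaped by replicate number, with a black line at the median of each day. Sox10 lies at 19.5 to 31.1 on day 3 and at 0.478 to 4.93 on day 7, Shh lies above its day 3 range in all 8 libraries of day 7, and the Ifit3 values of the days overlap.

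Markers of the oligodendrocyte lineage fell as a group. Of 9 precursor markers tested 6 were lower and 0 higher, with a median change of -0.75, and of 12 myelin markers 11 were lower and 0 higher, with a median of -1.32. With correlated sets 5 of the 9 and 8 of the 12 were still called lower.

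Sox10 (mm9, chromosome 15, 78985343 to 78994921) encodes the transcription factor that defines the lineage. Its level was 19.5 at the lowest, 25.1 at the median and 31.1 at the highest at day 3, and 0.478, 1.76 and 4.93 at day 7. All 8 libraries of day 7 were below all 7 of day 3, an 8.68-fold lower level (log2 -3.12, SE 0.21, limma adjusted p = 4.25e-07). Gpr17, a receptor of precursors committed to differentiate, went from between 2.98 and 7.65 at day 3 to between 0.188 and 0.627 at day 7 (log2 -2.17, adjusted p = 2.44e-08). Pdgfra, the receptor for the growth factor PDGF that precursors and fibroblasts share, fell by 1.47 in log2 (adjusted p = 1.18e-04) from a median of 26.1 to 10.6. Cspg4, the NG2 proteoglycan of precursors, fell by 1.24 (adjusted p = 7.87e-04) and Olig2, a factor of the lineage that progenitors also use, fell by 0.70 (adjusted p = 0.00164). The remaining 3 precursor markers, Nkx2-2, Ptprz1 and Bcan, did not pass.

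Genes of the myelin sheath itself also fell. Mbp, myelin basic protein, had its lowest, median and highest levels at 44.0, 65.4 and 82.9 on day 3 and at 6.62, 16.6 and 30.1 on day 7 (log2 -1.92, SE 0.16, limma adjusted p = 2.89e-06), with no overlap between days. Within day 7 the mutant glia were at 22.5 to 30.1 and the wild-type glia at 6.62 to 10.8; at day 3 they were at 65.4 to 82.9 and 44.0 to 54.9. The genotype difference in the change of Mbp did not pass (0.91, SE 0.25, adjusted p = 0.188, and 0.00574 with the replicate block). Cldn11, the claudin of myelin tight junctions, fell by 2.22 and Mag, the glycoprotein that faces the axon, fell by 1.69, and neither overlapped between days. The genotype difference was -1.15 in Cldn11, opposite in sign to that of Mbp, and 0.71 in Mag. Neither passed (limma adjusted p = 0.137 and 0.55), and both passed with the replicate block (0.00317 and 0.0361).

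3 of the largest falls outside the lists belong by background to the same cells or to their surroundings: Bcas1, a marker of myelinating oligodendrocytes, fell by 2.46 from a median of 17.4 to 1.76. Tnr, tenascin-R, a matrix protein made by oligodendrocytes, fell by 3.01 from 33.4 to 2.63. Cacng4, an auxiliary subunit of AMPA glutamate receptors, fell by 2.39 from 23.1 to 3.63. That none of the 3 overlapped between the days was a condition of their being named.

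Genes of meningeal fibroblasts and of the collagen matrix fell together. Of 12 fibroblast and meningeal markers 10 were lower and 0 higher (median -0.996), and of 14 collagen genes 12 were lower and 0 higher (median -0.637). With correlated sets 5 of the 12 and 5 of the 14 were lower. The summed fibroblast and meningeal markers (rescaled over all 23 glial libraries) were at 2112 to 2740 and then at 645 to 904 in mutant glia, and at 2021 to 3308 and then at 1449 to 1567 in wild-type glia, so that the mutant libraries of day 7 all lay below the wild-type ones. In Igf2 and Pdgfra of this list, and in the matrix Gla protein gene Mgp outside it, the genotype difference in the change was -1.67, -1.14 and -1.73 and did not pass (limma adjusted p = 0.224, 0.102 and 0.415), but passed with the replicate block (0.00228, 0.00265 and 0.00218).

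Col1a1 (mm9, chromosome 11, 94797538 to 94814357), a chain of fibrillar type I collagen, was at 357, 560 and 719 (lowest, median, highest) at day 3 and at 118, 194 and 249 at day 7. The days did not overlap (log2 -1.63, SE 0.17, limma adjusted p = 1.53e-05, a 3.10-fold lower level). Its partner chain Col1a2 fell by 1.22 (adjusted p = 2.15e-05). Col6a3 and Col6a2, chains of the microfibril collagen VI, fell by 1.11 and 1.09, the former with an adjusted p of 0.129 with correlated sets. The collagens that did not pass were Col5a1 and Col18a1.

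Ptgds, the prostaglandin D synthase of the meninges and choroid plexus, was at 117 to 580 at day 3 and at 26.3 to 100 at day 7 (log2 -2.29, SE 0.36, adjusted p = 4.76e-04). The highest day 3 level, 580, was that of the WTG_WTN replicate 1 library, and the change was -1.78 (adjusted p = 0.00655) without the day 3 replicate 1 libraries. Fbln1, a matrix protein of elastic fibres, fell by 1.62, from a median of 81.5 to 23.7. Igf2, a growth factor of the meninges, went from a median of 677 to 458 with overlapping ranges (log2 -1.07, adjusted p = 0.0218, but 0.116 without the day 3 replicate 1 libraries and 0.276 with correlated sets).

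Aqp1, a water channel of the choroid plexus (mm9, chromosome 6, 55286426 to 55298550), had the second largest of the named falls. It was at 200, 293 and 413 at day 3 and at 18.1, 27.0 and 56.9 at day 7, a 10.3-fold lower level without overlap (log2 -3.37, SE 0.20, limma adjusted p = 2e-07). H19, the imprinted long noncoding RNA that neighbours Igf2 on chromosome 7 (mm9, 149761434 to 149764049), was at 912, 1236 and 1973 and then at 137, 190 and 253, a 6.81-fold lower level (log2 -2.77, adjusted p = 3.23e-07). Mgp, the matrix Gla protein that inhibits calcification, and Epyc, the proteoglycan epiphycan, fell by 2.33 and 2.5. Cpz, a carboxypeptidase that binds Wnt proteins, went from between 14.9 and 21.7 to between 1.75 and 2.95 (log2 -2.54, adjusted p = 1.79e-08). Cbr2, a carbonyl reductase, fell by 2.75, and was at 10.1 to 122 on day 3 and 1.93 to 5.48 on day 7. Reg3g, a secreted lectin, fell by 3.92 from between 25.5 and 160 to between 0.55 and 11.8.

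Other matrix genes fell more often than they rose: of 16 tested, 8 were lower and 2 higher (median -0.324), and 2 and 1 with correlated sets. Fn1, the glycoprotein fibronectin, was at 463, 586 and 613 at day 3 and at 261, 293 and 333 at day 7 (log2 -0.94, SE 0.10, limma adjusted p = 2.09e-05). Lox, the enzyme that cross-links collagen, went from a median of 425 to 170 (log2 -1.25, adjusted p = 3.33e-06), and neither overlapped between days. Elastin, Eln, fell by 1.48 (adjusted p = 0.0909 with correlated sets).

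Of 15 matrix proteases and their inhibitors 5 were lower and 0 higher (median -0.393), among them Mmp2 at -0.70, Adamts5 at -0.70 and Mmp9 at -0.78. With correlated sets 0 of these 15 were called, with adjusted p values of 0.0911, 0.0653 and 0.149 for those named, and without the day 3 replicate 1 libraries 2 of the 15 were called and Mmp9 missed the threshold (adjusted p = 0.071).

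The insulin-like growth factor system, in which binding proteins hold the growth factors in the matrix, had 6 of 12 members lower and 1 higher (median -0.469), and 2 and 0 with correlated sets. Igfbp4, a binding protein that inhibits the growth factors, was at 104, 136 and 165 at day 3 and at 18.9, 34.3 and 47.0 at day 7 (log2 -2.01, SE 0.19, limma adjusted p = 5.99e-06). Igfbp6, which prefers Igf2, fell by 1.88 from a median of 80.3 to 23.8. Neither overlapped between days. Igfbp5, a binding protein held in the matrix, went the other way, from a median of 320 to 546 (log2 0.79, adjusted p = 0.00351, and 0.149 with correlated sets).

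**Figure D2:**
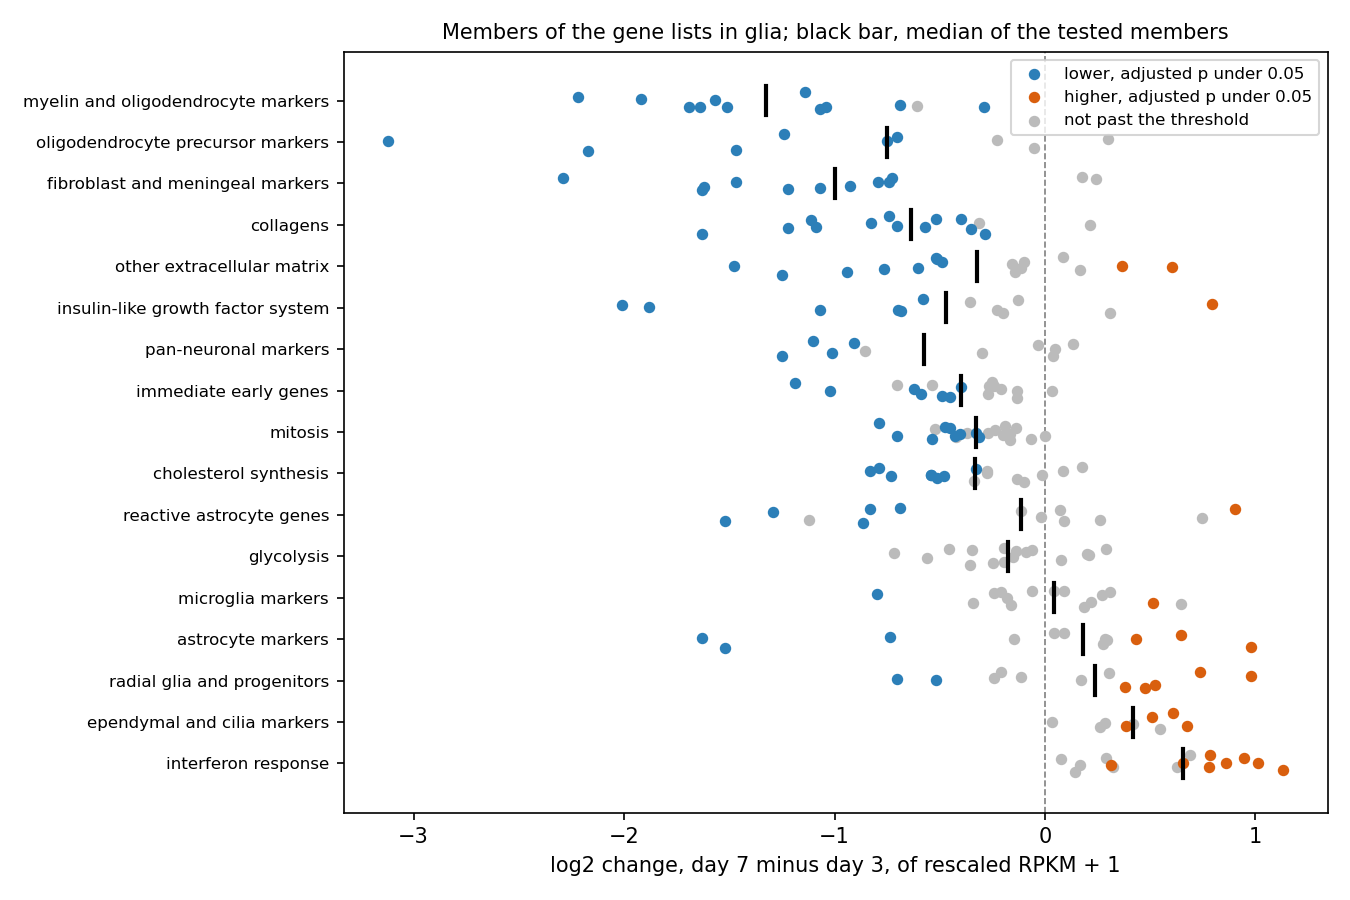
Log2 change, day 7 minus day 3, of each tested member of 17 gene lists in glia, 1 point a gene, coloured by whether it passed the limma threshold and in which direction, with a black bar at the list's median. Of 12 myelin markers 11 are blue (lower), and the 8 interferon genes past the threshold are all orange (higher).

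Astrocyte genes moved in both directions. Of 12 astrocyte markers 3 were higher and 3 lower (median 0.182, 6 higher with the replicate block, and 1 higher and 2 lower with correlated sets), and their summed level was 1535 to 1865 at day 3 and 1586 to 1991 at day 7. The falls were in Gfap, S100b and Slc1a2 and the rises in Slc1a3, Mlc1 and Slc4a4.

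Gfap (mm9, chromosome 11, 102748650 to 102762227), the intermediate filament of astrocytes, was at 266, 354 and 455 at day 3 and at 63.5, 128 and 226 at day 7. All libraries of day 7 were below those of day 3 (log2 -1.52, SE 0.19, limma adjusted p = 8.75e-05). S100b, a calcium-binding protein that oligodendrocyte precursors share, was at 29.7, 41.6 and 49.0 and then at 8.47, 11.7 and 15.2 (log2 -1.63, adjusted p = 2.49e-07).

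The 2 glutamate transporters went opposite ways. Slc1a3, the transporter GLAST that radial glia also carry (mm9, chromosome 15, 8584124 to 8660765), was at 50.8, 94.7 and 112 at day 3 and at 136, 171 and 205 at day 7 with no overlap (log2 0.98, SE 0.17, adjusted p = 0.0011, and 0.0717 with correlated sets). Slc1a2, the transporter GLT-1 of mature astrocytes, was at 36.5, 60.1 and 66.1 and then at 28.4, 33.4 and 37.1 (log2 -0.74, adjusted p = 4.65e-04, and 0.0929 with correlated sets). Its lowest day 3 value, in the MTG_MTN replicate 1 library, lay within the day 7 range. Over the wider list of 12 genes of glutamate and potassium handling 2 were higher and 1 lower (0 and 0 with correlated sets), Slc38a3, a glutamine exporter, at 0.51 among them (adjusted p = 0.00454, and 0.109 with correlated sets).

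Of 12 radial glia and progenitor genes 5 were higher and 2 lower (median 0.237), and 1 and 1 with correlated sets. Nes, the intermediate filament nestin of progenitors, was at 98.5, 118 and 145 at day 3 and at 176, 195 and 242 at day 7, with no overlap (log2 0.74, SE 0.12, limma adjusted p = 5.22e-04). Fabp7, a brain lipid-binding protein of radial glia, went from a median of 331 to 452 with overlapping ranges (log2 0.52, adjusted p = 0.0392, and 0.302 with correlated sets).

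Genes that mark reactive astrocytes were lower more often than higher, at 5 and 1 of 13 (median -0.114), and 3 and 1 with correlated sets. Lcn2, the lipocalin of reactive astrocytes, was at 89.9 to 156 at day 3 and at 25.4 to 85.7 at day 7 (log2 -1.29, SE 0.23, adjusted p = 0.00131). Hspb1, a small heat shock protein, fell by 0.87 (adjusted p = 0.00654, and 0.0871 with correlated sets). Cp, ceruloplasmin, a copper-binding ferroxidase, rose by 0.90 from between 33.3 and 46.9 to between 60.1 and 102 (adjusted p = 2.44e-05). Of 11 genes linked to a neurotoxic astrocyte state 1 was higher and 3 lower (1 and 1 with correlated sets), and of 11 linked to a protective state 1 was higher and 1 lower (0 and 1).

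The named rises included genes of secreted and surface proteins and of enzymes and their regulators. C1ql3, a C1q-like protein that organises synapses (mm9, chromosome 2, 12925084 to 12933375), was at 49.0, 52.6 and 57.6 at day 3 and at 117, 141 and 158 at day 7 (log2 1.39, SE 0.08, limma adjusted p = 1.83e-07). Gria1, an AMPA receptor subunit, was at 3.40 to 8.67 and then at 10.9 to 29.1 (log2 1.40, adjusted p = 2.39e-04). Gldc, the glycine-cleaving enzyme of astrocytes, went from a median of 8.20 to 20.5 (log2 1.29, adjusted p = 2.15e-05). Gchfr, the regulator of the first enzyme of tetrahydrobiopterin synthesis, had the largest rise, from 2.08, 3.07 and 3.43 to 6.44, 9.37 and 20.7 (log2 1.70, SE 0.23, adjusted p = 1.27e-04).

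Further rises were in Cnmd, the cartilage protein chondromodulin, Slco1a4, an organic anion transporter, Mia, a secreted protein first found in melanoma, Adam11, a catalytically inactive surface protein of neural cells, and Klhdc8a, a kelch repeat protein, with changes of 1.43, 1.19, 1.19, 1.13 and 1.08. Traf1, an adaptor of tumour necrosis factor receptors, rose by 1.26. Gstm6, a glutathione transferase, was at 0.794 to 2.16 and then at 2.53 to 9.86 (log2 1.22, adjusted p = 0.00134, and 0.144 with correlated sets); glutathione transferases of this family are near copies that can share reads.

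Of 11 secreted factors that organise synapses 5 were lower and 2 higher, and 2 and 1 with correlated sets. Thbs2, thrombospondin-2, was at 58.8, 85.6 and 106 at day 3 and at 22.5, 27.6 and 35.3 at day 7 (log2 -1.58, SE 0.13, limma adjusted p = 2.15e-06). Vcan and Ncan, the proteoglycans versican and neurocan of brain matrix, fell by 1.20 and 1.68 (adjusted p = 0.0941 for Ncan with correlated sets), and none of the 3 overlapped between days. Chrdl1, a BMP antagonist of astrocytes, rose by 0.76 from between 10.4 and 14.9 to between 20.2 and 22.4 (adjusted p = 8.89e-06). Ptn, the growth factor pleiotrophin, one of 14 neurotrophic factors of which 3 were lower and 1 higher (0 and 0 with correlated sets), had an adjusted p of 0.0205 (log2 -1.03), of 0.138 without the day 3 replicate 1 libraries and of 0.311 with correlated sets.

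Few microglial markers passed the test. Of 15 tested 1 was higher and 1 lower (median 0.04, 4 higher and 2 lower with the replicate block, and 0 higher and 1 lower with correlated sets), and the summed level was 2267 to 4061 at day 3 and 1970 to 4281 at day 7. Cx3cr1, the fractalkine receptor, was at 51.2, 56.6 and 64.5 and then at 66.6, 82.9 and 104 (log2 0.51, SE 0.10, limma adjusted p = 0.00261, and 0.211 with correlated sets). Cd68, a lysosomal protein of phagocytes, was at 232, 300 and 465 and then at 150, 179 and 210 (log2 -0.80, SE 0.12, adjusted p = 3.41e-04). Neither gene's values overlapped between days, and defining markers such as Tyrobp and C1qa did not pass.

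Of 16 genes of activated microglia 4 were lower and 1 higher, and 0 and 1 with correlated sets. The lower ones named were Lyz2, lysozyme (-0.82), Gpnmb, a glycoprotein of lipid-laden phagocytes (-0.79), and Spp1, osteopontin (-0.52), all with overlapping ranges and all past the threshold only with the day 3 replicate 1 libraries in the fit (adjusted p = 0.0519, 0.0538 and 0.0657 without them, and 0.12, 0.222 and 0.354 with correlated sets). Cst7, a cathepsin inhibitor, rose by 0.93 from a median of 14.7 to 30.6 (adjusted p = 0.00181). 2 surface receptors of immune cells were among the largest rises. Cd72, a C-type lectin, was at 8.65, 12.0 and 17.9 and then at 24.7, 35.2 and 50.6 (log2 1.46, SE 0.18, adjusted p = 5.59e-05), and Slamf9 went from a median of 2.59 to 8.44 (log2 1.41, adjusted p = 2.38e-04).

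Of 11 complement genes 1 was higher and 2 lower, and 1 and 1 with correlated sets. C3 (mm9, chromosome 17, 57343397 to 57367560), the protein on which the complement pathways converge, was at 120, 127 and 171 at day 3 and at 235, 293 and 324 at day 7 without overlap (log2 1.12, SE 0.11, limma adjusted p = 7.23e-06). Serping1, the inhibitor of C1, fell by 0.97, and C2, a subunit of the C3 convertase, fell by 0.74 (adjusted p = 0.148 for C2 with correlated sets).

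**Figure D3:**
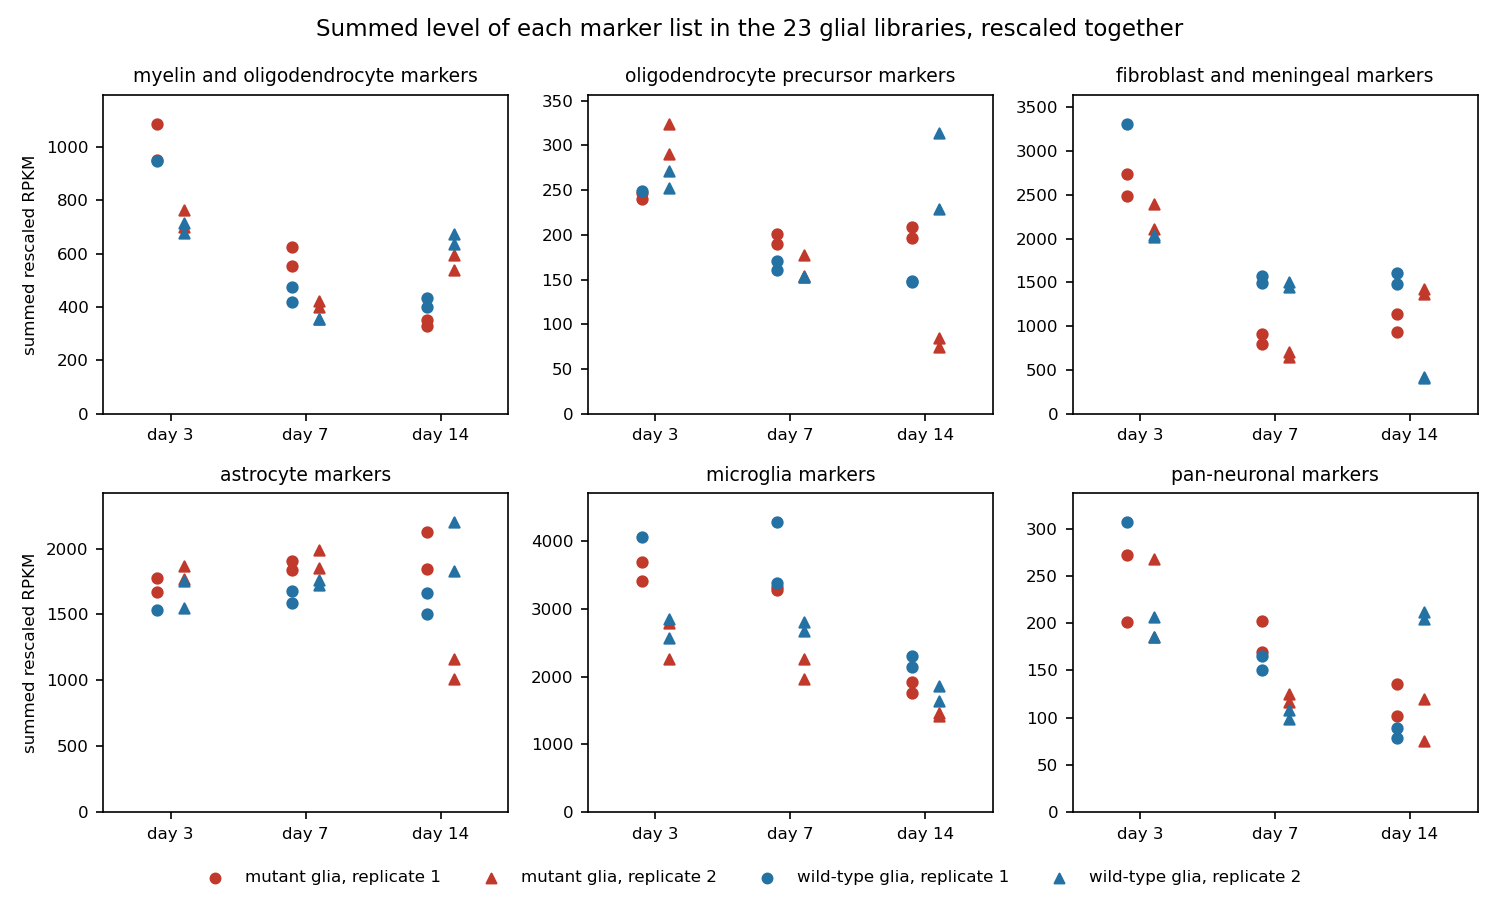
Summed rescaled RPKM of 6 lists of cell type markers in each of the 23 glial libraries of days 3, 7 and 14, 1 point a library, coloured by glial genotype and shaped by replicate number, on axes from 0. The fibroblast and myelin sums of day 7 lie below all those of day 3, and the microglial sums of the days overlap.

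Of 15 interferon-induced genes 8 rose and the other 7 did not pass, with overlap between the days in those named. The counts were 8 higher and 0 lower, against 11.6% higher among all entries, and the median change was 0.655 against 0.02. The count was 10 with the replicate block, 6 without the day 3 replicate 1 libraries, 1 with correlated sets and 0 with the values as deposited.

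These genes are switched on by interferon through a promoter element whose core was searched as TTCNNTTTC on both strands. RefSeq promoters (250 bases before to 50 after the start, build GRCm38.p6) were matched for 11 of the 15, and 7 of the 11 (63.6%) held the core against 9.76% of 27025 promoters of the same length. Among the 11 were 5 genes that rose, and 3 of the 5 held the core. The core was thus no more frequent in the genes that rose than in the list. The promoters of Ifit3, Ifit1 and Rsad2, which rose and hold the core, are shown 5′ to 3′ with each match in capitals. In Ifit1 matches overlap.
Ifit3, chr19:34583279-34583578, plus strand: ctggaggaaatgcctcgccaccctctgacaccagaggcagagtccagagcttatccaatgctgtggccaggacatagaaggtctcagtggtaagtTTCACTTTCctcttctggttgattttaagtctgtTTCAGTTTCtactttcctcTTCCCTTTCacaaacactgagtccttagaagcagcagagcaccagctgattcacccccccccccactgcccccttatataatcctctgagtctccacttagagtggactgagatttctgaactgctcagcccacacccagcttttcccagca
Ifit1, chr19:34640639-34640938, plus strand: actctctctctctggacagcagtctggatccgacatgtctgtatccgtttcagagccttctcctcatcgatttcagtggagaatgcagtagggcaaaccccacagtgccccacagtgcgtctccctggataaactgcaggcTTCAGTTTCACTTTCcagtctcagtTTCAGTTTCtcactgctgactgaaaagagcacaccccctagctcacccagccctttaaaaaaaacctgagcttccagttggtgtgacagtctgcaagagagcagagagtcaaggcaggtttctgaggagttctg
Rsad2, chr12:26456403-26456702, minus strand: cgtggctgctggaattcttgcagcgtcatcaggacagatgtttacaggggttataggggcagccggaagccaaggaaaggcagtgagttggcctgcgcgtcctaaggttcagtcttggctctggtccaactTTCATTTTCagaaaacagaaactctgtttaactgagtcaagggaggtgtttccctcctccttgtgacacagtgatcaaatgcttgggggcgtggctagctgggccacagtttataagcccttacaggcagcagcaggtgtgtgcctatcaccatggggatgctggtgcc
The core is at 3 places in Ifit3 and in Ifit1 and at 1 in Rsad2. A match is a description of the letters and not a measured site of binding.

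Ifit3 (mm9, chromosome 19, 34658021 to 34663222), which encodes an RNA-binding antiviral protein and has a near copy that can share its reads, was at 13.9, 14.8 and 25.4 at day 3 and at 17.6, 43.0 and 77.4 at day 7 (log2 1.13, SE 0.26, limma adjusted p = 0.00748, and 0.145 with correlated sets). The 4 wild-type libraries of day 7, at 41.5 to 77.4, lay above all of day 3. The mutant replicate 1 libraries were at 40.3 and 46.4, and the mutant replicate 2 libraries, at 17.6 and 19.6, lay within the day 3 range. Its relative Ifit1 went from a median of 8.59 to 20.1 (log2 0.86, adjusted p = 0.0136, and 0.323 with correlated sets). Rsad2, the antiviral enzyme viperin, went from 2.11 to 5.97 (log2 1.01, adjusted p = 0.00438, and 0.234), and Usp18, which removes the ISG15 tag and dampens the response, went from 7.10 to 17.8 (log2 0.94, adjusted p = 0.0105, and 0.248).

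Of 10 genes of antigen presentation 0 were higher and 1 was lower (0 with correlated sets). Of 13 inflammatory cytokines and chemokines 1 was higher and 2 lower, and 1 and 1 with correlated sets.

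Some genes of cell division were lower at day 7. Of 21 mitosis genes 9 were lower and 0 higher (median -0.33). The lower ones were 6 with replicate 1 libraries only, 3 with replicate 2 libraries only and 0 with correlated sets. Mki67, the Ki-67 antigen of dividing cells, was at 4.38, 6.99 and 12.5 and then at 1.90, 4.15 and 6.58 (log2 -0.79, SE 0.26, limma adjusted p = 0.0412, and 0.285 with correlated sets). Ube2c, which loads ubiquitin for the anaphase complex, Aurkb, a mitotic kinase, and Ccna2, cyclin A2, changed by -0.70, -0.54 and -0.47 (adjusted p = 0.18, 0.234 and 0.383 with correlated sets). The ranges of the days overlapped in all 4. Of 18 DNA replication genes 3 were lower and 1 higher, near the 12.6% lower among all entries, and 0 and 0 with correlated sets. The mitosis promoters held CCAAT in 15 of 17 (88.2%, against 41.1% of all) and TTTGAA in 12 of 17 (70.6%, against 20.2%). Each was held by 5 of the 6 called genes with a promoter. These shares describe the list and not the change between the days.

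Immediate early genes, which respond to growth factors within minutes, were lower in 7 of 17 and higher in 0 (median -0.397, and 1 lower with correlated sets). Egr2, a zinc finger factor that Schwann cells use for myelination, was at 3.66 to 6.54 and then at 1.13 to 2.19 without overlap (log2 -1.19, SE 0.11, limma adjusted p = 7.49e-06). Fos, part of the AP-1 factor, fell by 0.59 (adjusted p = 0.00179, and 0.0894 with correlated sets). Egr1 and Ier3 changed by -0.62 and -1.02, with adjusted p values of 0.101 and 0.224 without the day 3 replicate 1 libraries and of 0.143 and 0.111 with correlated sets.

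Of 16 genes of cholesterol synthesis 8 were lower and 0 higher (median -0.333, and 2 lower with correlated sets). Dhcr7, the enzyme of the last step, was at 23.6, 25.3 and 34.0 and then at 12.2, 14.6 and 17.1 (log2 -0.83, SE 0.10, adjusted p = 4.91e-05). Lss, which closes the sterol rings, fell by 0.73 (adjusted p = 2.39e-05), and neither overlapped between days. Mvd, of an earlier step, changed by -0.79, with an adjusted p of 0.0948 with correlated sets and of 0.0557 without the day 3 replicate 1 libraries.

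No call was made among 16 glycolysis genes, 12 hypoxia genes or 13 serum response genes, and with the replicate block 5, 6 and 0 were lower and 1, 0 and 3 higher. Ldha, lactate dehydrogenase A, was at 204 to 1520 and then at 168 to 401 (log2 -0.72, limma adjusted p = 0.137, and 0.0182 with the block), and its highest value, in the WTG_WTN replicate 1 library of day 3, stood far above the next at 417. Vegfa, the vascular growth factor, and Ankrd37, an ankyrin repeat protein, both targets of the hypoxia factor, changed by -0.56 and -0.85 (adjusted p = 0.142 and 0.223, and 0.00109 and 0.0027 with the block). Of 15 genes of the oxidative stress response 1 was higher and 2 lower (0 and 0 with correlated sets), Hmox1, heme oxygenase, at -0.79 among them (adjusted p = 0.117 without the day 3 replicate 1 libraries and 0.216 with correlated sets).

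Called genes of the hedgehog, TGF-beta and BMP, and Wnt lists moved both ways, and those of the Notch list were all lower. Among all entries 11.6% were higher and 12.6% lower. Shh, the hedgehog ligand (mm9, chromosome 5, 28783355 to 28793642), was at 2.20, 3.13 and 4.87 at day 3 and at 7.11, 8.85 and 12.8 at day 7, above the day 3 range in all 8 libraries (log2 1.22, SE 0.16, limma adjusted p = 8.72e-05). Gli1, the transcriptional target that reports the pathway, fell by 0.53 (adjusted p = 6.66e-04, and 0.0989 with correlated sets). Ptch1, the receptor and also a target, rose by 0.41 (adjusted p = 0.0261), not with the deposited values (-0.04), and with an adjusted p of 0.122 without the day 3 replicate 1 libraries and of 0.351 with correlated sets. In all, 2 of 7 hedgehog genes were higher and 2 lower, and 1 and 0 with correlated sets.

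Of 20 genes of TGF-beta and BMP signalling 4 were higher and 5 lower, and 0 and 1 with correlated sets. Tgfb1, the ligand, fell by 0.92 from between 33.3 and 59.5 to between 17.7 and 26.0 (adjusted p = 4.16e-05). Bmp4, a ligand of the other branch, fell by 0.59 and Id4, a BMP target of progenitors, rose by 0.49 (adjusted p = 0.0635 and 0.218 with correlated sets). Of 13 Wnt genes 2 were higher and 5 lower (1 and 1 with correlated sets): the secreted inhibitor Sfrp1 rose by 0.86 from between 29.4 and 39.2 to between 53.4 and 74.4, the inhibitor Wif1 fell by 0.75, and Nkd1, a feedback target, changed by -0.78 (adjusted p = 0.337 with correlated sets). Of 13 Notch genes 5 were lower and 0 higher (1 and 0 with correlated sets), among them Nrarp, a feedback inhibitor, at -0.69. The median change of the Notch genes was -0.24, against 0.02 over all entries.

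Csf1, the growth factor of microglia, rose by 0.57 from between 45.2 and 59.0 to between 70.2 and 90.0 (adjusted p = 3.37e-04). Sema3d, a guidance cue, fell by 2.26, and Rtn4rl2, a receptor for myelin inhibitors of axon growth, fell by 2.34.

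Markers of other cells moved too. Of 10 pan-neuronal markers tested 4 were lower and 0 higher (median -0.576, and 3 lower with correlated sets), and their summed level fell from between 185 and 307 at day 3 to between 98.0 and 202 at day 7. Gap43, a growth cone protein, was at 81.8 to 142 and then at 24.8 to 75.9 (log2 -1.25, limma adjusted p = 0.00188), and Elavl3, a neuronal RNA-binding protein, fell by 1.01 (adjusted p = 3.01e-06). Nefl, the light neurofilament, changed by -1.10 (adjusted p = 0.0276, and 0.404 with correlated sets). The motor neuron markers that could be tested, Mnx1, Prph and Slc18a3, were lower in 3 of 3, at a summed level of 5.61 to 22.4 on day 3 and 2.64 to 9.55 on day 7, and in 0 of 3 with correlated sets (adjusted p = 0.131, 0.44 and 0.291). What part neuronal RNA in the glial libraries had in these results was not tested.

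Of 9 ependymal and cilia markers 4 were higher and 0 lower (median 0.419, 7 with the replicate block and 0 with correlated sets), Rarres2, the chemoattractant chemerin, and Dynlrb2, a dynein light chain of cilia, at 0.67 and 0.61 (adjusted p = 0.36 and 0.277 with correlated sets). Of 8 Schwann cell markers 5 were lower and 0 higher (4 lower with correlated sets), and Sox10 on that list is shared with oligodendrocytes. Of 6 endothelial markers 1 was higher and 2 lower (0 and 0 with correlated sets), Cdh5, the cadherin of vessel walls, at -1.06 (adjusted p = 0.00256, and 0.177 with correlated sets).

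The counts of the other lists stand against 11.6% higher and 12.6% lower among all entries. With correlated sets 1 gene each was lower in cell cycle arrest, in lipid transport and in pericytes and smooth muscle, and 0 in the rest. Of 14 genes that cause familial ALS when mutated 1 was higher and 0 lower, and 6 and 3 with the replicate block. Of 14 genes of oxidative phosphorylation 2 were higher and 0 lower (6 higher with the block), and of 16 lysosome genes 0 were higher and 4 lower. The counts were 2 higher and 4 lower of 14 genes of cell cycle arrest, 3 and 2 of 13 of lipid transport, 1 and 1 of 11 heat shock genes and 0 and 3 of 15 genes of the unfolded protein response. Of the markers of further cell types 0 and 2 of 6 of pericytes and smooth muscle, 2 and 1 of 5 of skeletal muscle and 0 and 0 of 3 of pluripotent cells passed.

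The next question was whether the days changed mutant and wild-type glia differently. The difference between their changes (mutant minus wild type, over both neuron genotypes) passed in 37 entries upward (0.261%) and 111 downward (0.782%), and in 238 and 490 with the replicate block within day. Since the wild-type libraries of day 7 lacked the Y-linked transcript that those of day 3 had, genotype and the source of the cultures cannot be told apart in this test.

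Enpp2, the enzyme autotaxin, was at 12.8 to 22.9 and then at 5.25 to 7.87 in mutant glia, and at 10.1 to 15.9 and then at 38.5 to 50.2 in wild-type glia (difference -2.85, SE 0.26, limma adjusted p = 0.00139). Slc6a13, a GABA transporter of the meninges, was at 8.92 to 13.9 and 6.05 to 6.67 in mutant and at 7.25 to 17.4 and 37.9 to 52.3 in wild-type glia (-2.81, adjusted p = 0.00566). Angptl7, a secreted angiopoietin-like protein, had the same pattern (-3.33, adjusted p = 0.00691), as had Fzd10, a Wnt receptor (-2.72, adjusted p = 0.00512). In all 4 genes the mutant libraries of day 7 lay below and the wild-type libraries of day 7 above most libraries of day 3.

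Adamts4, a protease that cleaves matrix proteoglycans, was at 6 to 10.1 and then at 0.546 to 0.842 in mutant glia and at 2.07 to 5.41 and then at 3.53 to 5.15 in wild-type glia (difference -2.91, SE 0.34, limma adjusted p = 0.00398). Its change over both genotypes was -1.17 (adjusted p = 0.0556, and 0.0257 with the block). Reg3g fell in both but further in mutant glia, to 0.55 to 1.13 against 9.84 to 11.8 (difference -3.71, SE 0.72, adjusted p = 0.0427).

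In the other direction, Pianp, a ligand of the immune receptor PILR-alpha, was at 3.66 to 9.14 and then at 13.6 to 19.5 in mutant glia, and at 2.07 to 8.17 and then at 0.352 to 0.5 in wild-type glia (difference 3.55, SE 0.50, limma adjusted p = 0.00927). Ifi202b, an interferon-inducible DNA sensor gene that differs between mouse strains, went from between 3.7 and 6.6 to between 20.6 and 27.5 in mutant glia and was at 5.53 to 12.1 and 6.45 to 11.5 in wild-type glia (2.05, adjusted p = 0.0267). Slitrk5, a synaptic adhesion protein, and Sucnr1, the succinate receptor, differed by 1.48 and 1.36 (adjusted p = 0.0034 and 0.0151). Eif2s3y differed by 5.11 (adjusted p = 8.63e-04), the absence of the transcript in wild-type glia of day 7 described above. Sox10 fell in both genotypes, to 2.47 to 4.93 in mutant and to 0.478 to 1.05 in wild-type glia, a difference of 1.29 (SE 0.25, adjusted p = 0.0444). The difference also passed in Nkd1, Gstm6, Spon2 and Cdh5 (-1.12, -1.42, -1.55 and -1.35, adjusted p = 0.0163, 0.0279, 0.0111 and 0.0328), genes named here for other comparisons.

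**Figure D4:**
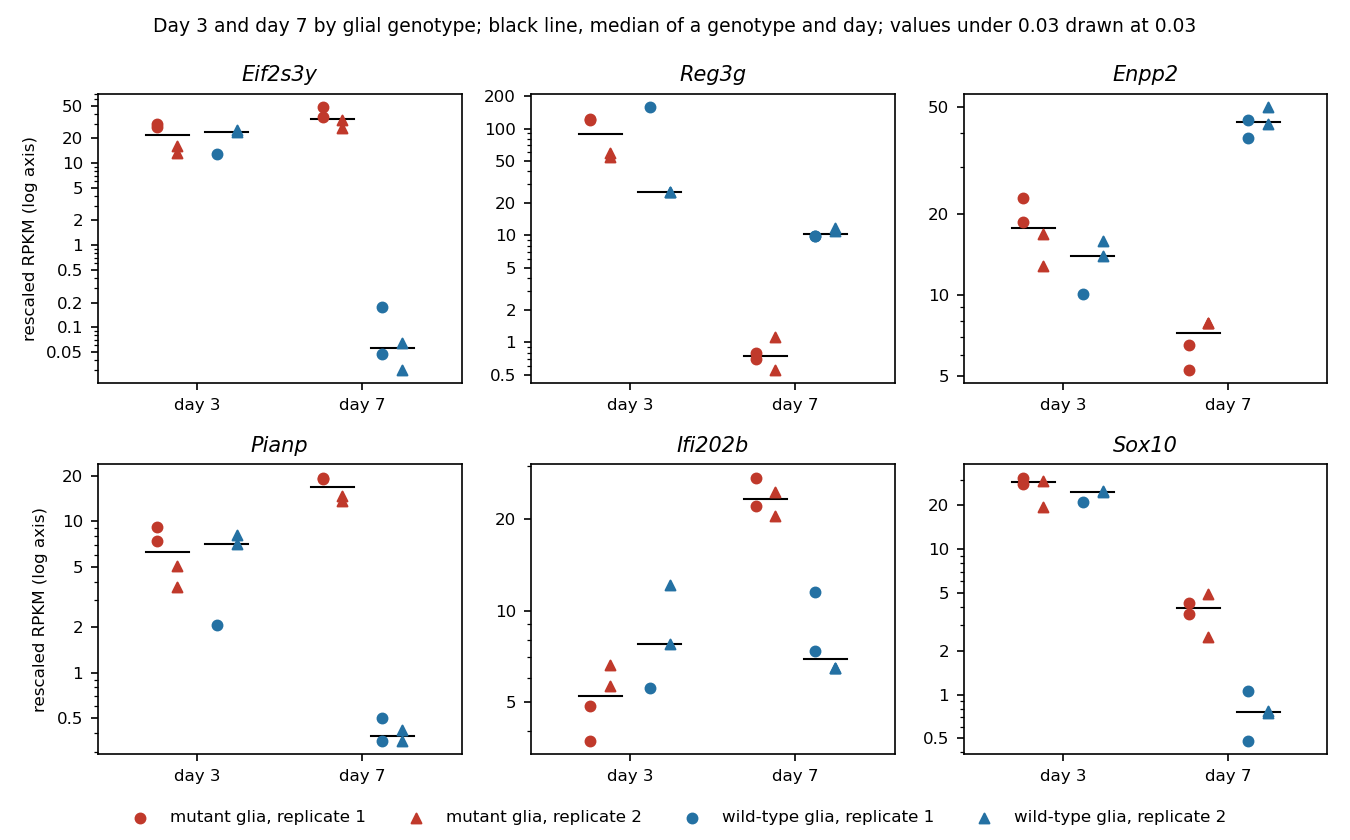
Rescaled RPKM (log axis) of 6 genes on days 3 and 7 with mutant (red) and wild-type glia (blue) side by side, 1 point a library, shaped by replicate number, with a black line at the median of each genotype and day and values under 0.03 drawn at 0.03. Eif2s3y is at 0 to 0.174 in wild-type glia of day 7, Enpp2 and Pianp move in opposite directions in the genotypes, and Sox10 falls in both.

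The genotype of the neurons beside the glia was tested in the same way. In limma no entry passed in either direction (0 and 0, with 50 and 27 at an unadjusted p under 0.05), nor with the replicate block, and without the filter on low values 4 were lower beside mutant neurons.

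The glia were then compared with the 13 neuronal libraries of the same 4 pairings and days. Wild-type neurons with wild-type glia had only replicate 1 on day 3. Mutant neurons with wild-type glia had only replicate 1 on day 3 and replicate 2 on day 7, so day and replicate number cannot be told apart there. No fit with correlated sets was made for this comparison. Without the replicate 1 libraries of day 3 the counts were 1965 upward and 2710 downward. The difference between the changes (glia minus neurons) passed in 1878 of 15456 entries upward (12.2%) and 2660 downward (17.2%), in 3412 and 3733 with the replicate block, and the median difference was 0.02. The difference was negative and passed in 12 of 12 myelin markers (median -1.82) and in 5 of 9 precursor markers. Mbp was at 7.29 to 18.5 in neuronal libraries of day 3 and at 3.92 to 34.4 at day 7 (log2 0.19, limma adjusted p = 0.659), so that the difference was -2.12 (SE 0.42, adjusted p = 6.52e-04).

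Collagens went in opposite directions: 11 of 14 rose in the neuronal libraries, where 12 of 14 fell in glia, and the difference passed in 11. Col1a1 went from a median of 16.0 to 37.9 in neuronal libraries, still below the glia (log2 1.04, limma adjusted p = 0.0278; difference -2.68, adjusted p = 3.44e-04). Of the 15 microglial markers, of which 1 rose and 1 fell in glia, 15 rose in neuronal libraries, and the difference passed in 13. Cd68 was at 21.9 to 65.1 and then at 80.1 to 333 there (difference -2.40, adjusted p = 9.52e-06). Of 21 mitosis genes 15 rose in neuronal libraries, and the difference passed in 13, Mki67 at -1.96 among them (adjusted p = 0.00113). The share of all entries that rose or fell in neuronal libraries is not given here, so these counts stand without it. The median change there was 1.32 for collagens, 1.59 for microglial markers and 0.769 for mitosis genes, against -0.000934 over all entries. The neuronal libraries thus gained transcripts of microglia, collagen genes and dividing cells relative to the glia, and what part glial RNA in those libraries had was not tested.

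The largest negative differences were in Thbs2 (-4.67, adjusted p = 9.92e-08), Sprr1a, a protein of regenerating axons (-4.47), Sema3d (-4.11) and Reg3g (-3.94). Thy1, a surface protein of neurons and fibroblasts, did not pass in glia (median 118 to 93.8, log2 -0.30, limma adjusted p = 0.0783, and 0.0121 with the block) and went from 8.64 to 98.3 in neuronal libraries. Spon2, a secreted matrix protein, and Nupr1, a stress-induced nuclear protein, differed by -3.48 and -3.44. The largest positive difference was that of Pax2, a transcription factor of spinal interneurons, which rose in glia from between 0.172 and 1.17 to between 1.36 and 2.64 and fell in neuronal libraries from between 4.11 and 19.7 to between 0.45 and 3.33 (3.11, SE 0.22, adjusted p = 2.63e-09). Islr2, an axon protein, and Crabp1, a retinoic acid-binding protein, differed by 2.77 and 2.20.

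Some genes rose in both kinds of library. Slc1a3, Nes and C1ql3 rose in the neuronal libraries too (log2 1.12, 0.96 and 1.06), and the differences did not pass (-0.16, -0.24 and 0.32, limma adjusted p = 0.819, 0.588 and 0.337). In cholesterol synthesis 11 of 16 genes fell in neuronal libraries (median -0.531), and the difference passed in 1 gene each way. Of the interferon genes 4 of 15 rose in neuronal libraries (median 0.411). The difference passed in 2 each way, upward in Usp18 (1.14, limma adjusted p = 0.00839) and not in Ifit3 (0.39, adjusted p = 0.475). The neuronal counts of both lists again stand without the share of all entries that rose or fell there. The median change over all entries there was -0.000934.

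**Figure D5:**
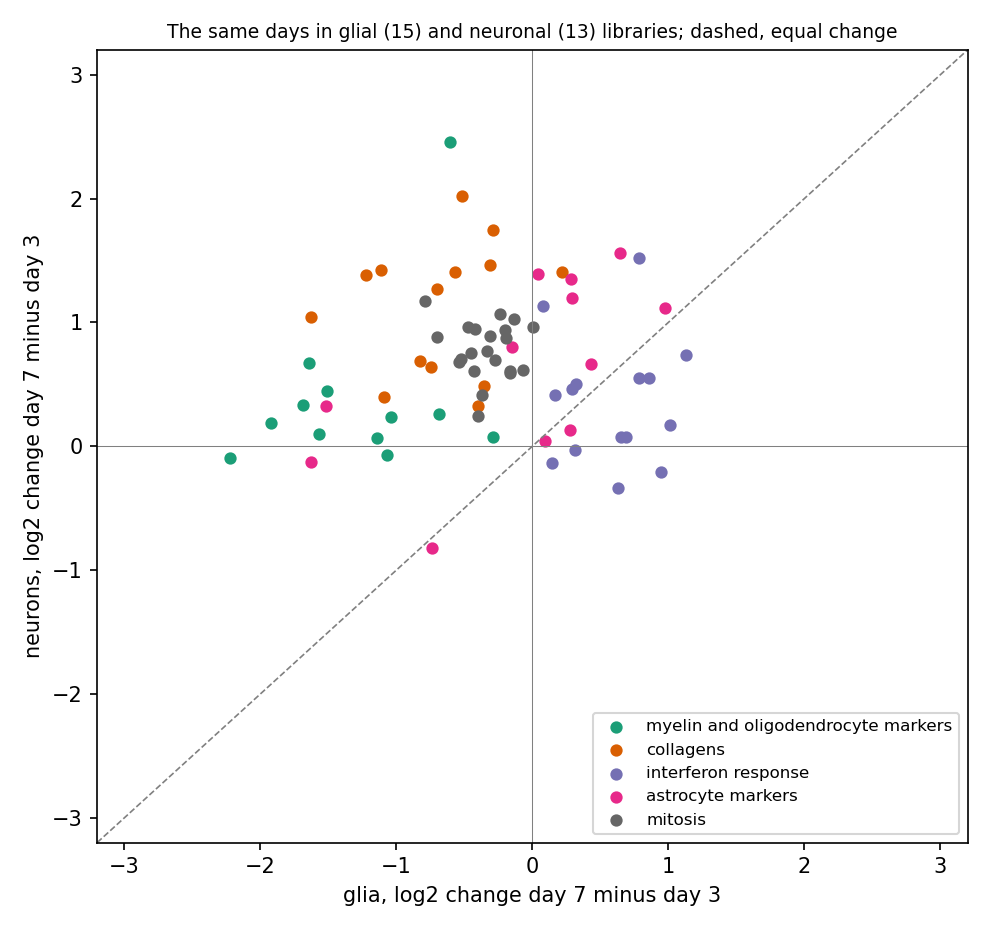
Log2 change from day 3 to day 7 in the 15 glial libraries (x) against that in the 13 neuronal libraries of the same days (y) for members of 5 gene lists, 1 point a gene, with a dashed line at equal change. Collagen and myelin genes lie left of the dashed line, above it, and interferon genes lie on both sides of it.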

How the data were processed

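The authors deposited a table of RPKM values per gene for the culture libraries; reads were aligned with Bowtie to mm9, per the submitters' processing notes, and steps beyond that are not given in the sources used here. All 22784 entries above 0 in a culture library came out as whole reads (tolerance 0.02 of a read), which gave the depth of each library. The deposited RPKM of the 15 libraries were divided by median-of-ratios factors, and log2(value + 1) of entries at 1 or more in at least 2 libraries was fitted with limma 3.58.1 (lmFit and eBayes with trend, R 4.3.3), with pairing and day as terms, and Benjamini-Hochberg adjustment. voom on the recovered reads called 1681 entries higher and 1817 lower. The fit was tested on simulated data.

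Genotype and neuron differences were interaction contrasts of the same kind. Same-numbered libraries of a pairing deviated together across days in the 3 pairings with both numbers (r = 0.558, 0.561 and 0.508, across genes). Those of different pairings did so as much, at 0.461 to 0.682 across days and 0.492 to 0.827 within a day. The replicate number thus went with a shift common to the pairings, which the replicate block takes out. Whether it pairs cultures of the 2 days is not known. Of 18851 entries the symbol came from an Entrez ID.

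Named genes are the 15 largest rises and falls that were called, had a mean of 5 or more on the higher day, did not overlap between days and stayed called without the day 3 replicate 1 libraries, up to 4 called members of each list (2 where none was called), up to 6 each way for the genotype difference and 10 for glia minus neurons. The members and the 49 lists were chosen with earlier results of these data known. Spinal cord libraries and other comparisons were not used here. Some genes of the lists are not reported here.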

Additional observations from a re-analysis of the deposited data

Results flagged for a closer look

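In 8 of 260 groups looked at (each named gene on each day) 1 library stood further from the rest of its day than the 95% limit of Dixon's gap test allows, and chance gives about 1 such group in 20, which is more than were found. At day 3 these were Slc1a2 at 36.5 (MTG_MTN replicate 1, next value 53), C3 at 171 (WTG_MTN replicate 2, next 136), Cd68 at 465 (WTG_WTN replicate 1, next 310), Spp1 at 736 (WTG_WTN replicate 2, next 556), C2 at 6.47 (MTG_MTN replicate 2, next 7.97) and Ldha at 1520 (WTG_WTN replicate 1, next 417). At day 7 they were C1ql3 at 117 (MTG_MTN replicate 1, next 138) and Dynlrb2 at 47.9 (WTG_MTN replicate 1, next 33.7).

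The change from day 3 to day 7 differed between mutant and wild-type glia, by the interaction test in limma, in 16 of the genes named. The difference was negative in Adamts4 (-2.91), Angptl7 (-3.33), Cdh5 (-1.35), Enpp2 (-2.85), Fzd10 (-2.72), Gstm6 (-1.42), Nkd1 (-1.12), Reg3g (-3.71), Slc6a13 (-2.81) and Spon2 (-1.55), and positive in Eif2s3y (5.11), Ifi202b (2.05), Pianp (3.55), Slitrk5 (1.48), Sox10 (1.29) and Sucnr1 (1.36).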

How the results depend on the processing

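With correlated sets, which the estimated correlation of 0.499 bears on most, the counts of entries higher and lower at day 7 were 154 and 454, against 1640 and 1783, and with the mean of each set 0 and 8. They were 40 and 3495 with the values as deposited, 280 and 636 with replicate 1 libraries only and 912 and 1163 without the replicate 2 libraries of day 3. Within mutant glia they were 451 and 976, within wild-type glia 435 and 735, within MTG_MTN 5 and 69, within MTG_WTN 20 and 190 and within WTG_WTN 2 and 18, with fewer libraries in each. With a filter at 5 in 7 libraries 937 were lower. Leaving out each library in turn gave 1049 to 1683 higher and 1349 to 1836 lower. With the replicate block 2993 were higher, 2857 with the block and correlated sets, and 627 and 1105 with the block and set means; both block fits with sets were chosen after seeing the data. The genotype difference gave 9 and 16 with the deposited values, 238 and 490 with the replicate block, and 15 to 34 and 46 to 124 with each library left out. The test by neuron genotype gave 4 lower without the filter on low values. Glia minus neurons gave 626 and 1235 with the deposited values and 3412 higher with the replicate block. Of the 130 genes with a day change named, 124 kept their call or lack of one under the replicate block and 6 gained one, and 130 of 130 kept theirs with upper-quartile factors, a pseudocount of 0.1 and voom. Of the 16 genes named with a genotype difference past the threshold, 16 kept the call with the replicate block, 7 with the deposited values and 9 to 15 with each library left out where the fit could be made. Ptch1 turned to -0.0426 with the deposited values, and Ifi202b to -0.0817 in wild-type glia alone and -0.228 in WTG_WTN alone. Genes near 1 RPKM rest on few reads in the 8.01 to 8.9 M reads of the day 3 replicate 1 libraries.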

Other observations

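The 8 glial libraries of day 14, rescaled together with those of days 3 and 7, show where the genes that fell stood later. In 6 of them 3 oligodendrocyte genes were at low levels: Sox10 was at 0.229 to 0.767, Mbp at 2.82 to 5.64 and Gpr17 at 0.0606 to 0.302. Other genes of the lineage differed from these: among the 6, Cspg4 was at 1.17 to 5.01 (1.33 to 4.17 at day 7) and Pdgfra at 5.04 to 13.9 (4.30 to 15.7), and the summed myelin markers were at 540 and 593 in the mutant replicate 2 libraries, against 421 and 399 in those of day 7. The replicate 2 libraries of wild-type glia, beside mutant and wild-type neurons, were apart, with Sox10 at 39.8 and 30.0, Mbp at 52.5 and 33.1, Bcas1 at 29.5 and 15.2, and Tnr at 28.2 and 22. The same 2 libraries had the lowest Col1a1, at 26.9 and 32.6, where the others were at 227 to 451. Reg3g was at 0 in these and in MTG_WTN replicate 1. The Y-linked Eif2s3y was at 31.4 and 33 in wild-type replicate 2 of day 14 and at 3.65 and 4.17 in wild-type replicate 1. In mutant glia of that day it was at 42.3 and 43.5 in replicate 2 and at 13 and 10.8 in replicate 1. Whether the replicates of day 14 came from different cultures was not tested. No test was made on these values.

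Of the genes that rose, C1ql3 was at 43.0 to 121 at day 14, Shh at 2.17 to 8.30, Cd72 at 5.45 to 17.6 and Ifit3 at 8.39 to 40.5, each with a median (84.7, 4.41, 11.2 and 19.4) below that of day 7. Gldc was at 13.8 to 27.4, with a median of 18.3 against 19.7 at day 7. Of the immediate early genes that were lower at day 7, Egr1 was at 64.8 to 131 and Fos at 37.9 to 94.5 at day 14, above all 15 libraries of days 3 and 7, Egr2 was at 3.48 to 7 (1.08 to 2.09 at day 7), and Ier3, at 34.7 to 115, overlapped day 7 (21.3 to 78.1). The summed microglial markers were at 1423 to 2302, against 1970 to 4281 at day 7.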
